A study of Homo sapiens with 8 samples.

Results

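The genes described here write, copy, remove or read methyl groups on DNA: the methyltransferases DNMT1, DNMT3A and DNMT3B, their inactive cofactor DNMT3L, the maintenance factor UHRF1, the dioxygenases TET1, TET2 and TET3, and the reader MBD2. Every probe that the platform annotation gives to 1 of these 9 symbols alone was taken, whatever its signal. Probes given to several symbols were left out. This gave 20 of the 48801 probes, for 8 of the 18664 genes named in the annotation used here, since TET3 has no such probe there. The arrays (Illumina HumanWG-6 v3) were hybridised with total RNA of RKO cells, an established human colon carcinoma line. For 24 h the cells carried 100 nM siRNA, either a pool with no target (NC) or one directed at SRCAP, the ATPase of a complex that deposits the histone variant H2A.Z. They were then given 1 µM 5-Aza-CdR, or PBS alone. The labels put this treatment at 72 h, whereas the methods describe 24 h of drug with RNA taken 72 h after it. There were 4 groups (NC siRNA with PBS, NC siRNA with 5-Aza-CdR, SRCAP siRNA with PBS, SRCAP siRNA with 5-Aza-CdR) of 2 arrays each, with replicate 1 of every group on slide 1 and replicate 2 on slide 2. All cells came from 1 line and all had been transfected. Whether the arrays of a group came from separate cultures is not stated, and the p-values cover the spread between these arrays only, which may be technical.

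DNMT1 copies methylation onto the new strand after replication, and UHRF1 binds the half-methylated site and brings DNMT1 to it. DNMT3A and DNMT3B add methyl groups to sites that had none, TET enzymes oxidise the methyl group, and MBD2 binds methylated CpG and recruits the NuRD deacetylase complex. 5-Aza-CdR is built into DNA, where it traps these methyltransferases, so it lowers methylation by removing the enzymes as proteins. Arrays of RNA do not measure that loss.

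A probe was counted as detected where its p against the negative control beads of the array was under 0.01. Each array detected 17838 to 19767 probes (36.6% to 40.5%). The SRCAP probe ILMN_1750641 had normalized log2 signals of 6.83 to 7.19 in cells with NC siRNA and of 6.46 to 6.73 in cells with SRCAP siRNA, a difference of -0.47 ± 0.16 (SE) that was not called (adjusted p = 0.172). Of the epithelial markers CDX2, EPCAM, KRT8 and KRT18 were detected, while VIL1, CDH1, KRT19, KRT20 and LGALS4 were not. Of the markers of other cell types 1 (PECAM1) was detected, while COL1A1, COL1A2, PDGFRB, PTPRC, CD3E, VWF and ALB were not.

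Transcripts of DNMT1, UHRF1, DNMT3B and MBD2 were detected on all 8 arrays by at least 1 probe, those of DNMT3A on some arrays, and those of DNMT3L, TET1 and TET2 on none. In all, 7 of the 20 probes were detected on every array, 2 (both of DNMT3A) on 4 arrays, and 11 on no array. Raw signals of these 11 lay between 100.1 and 161 on all arrays, and their lowest detection p was 0.0347. A probe entered the tests if at least 2 of the 8 arrays detected it, which left 9 probes of 5 genes (DNMT1, UHRF1, DNMT3A, DNMT3B and MBD2) among 20328 tested probes. For the other members no change can be given, and at this signal their absence is not shown.

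**Figure D1:**
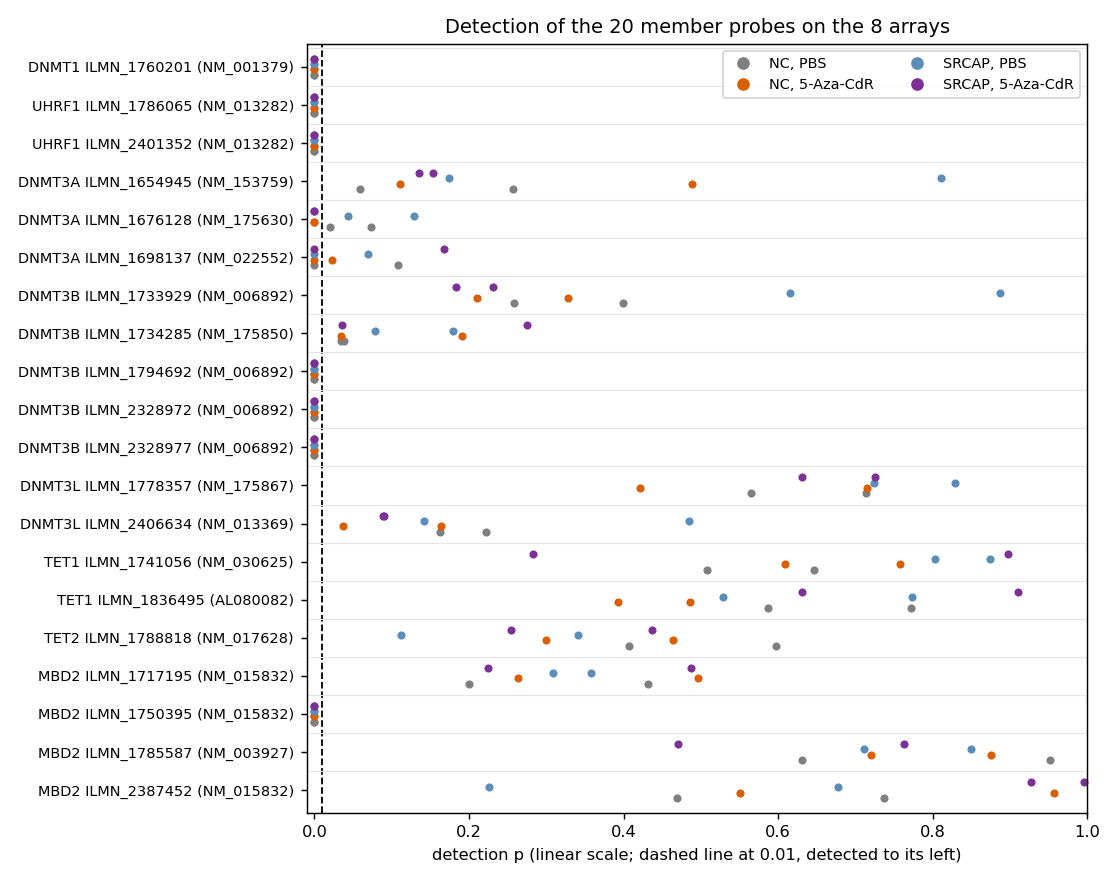
Detection p (linear axis) of the 20 member probes on the 8 arrays, 1 point per array coloured by group, with the transcript accession of the annotation in brackets. The dashed line marks 0.01; 7 probes lie left of it on all arrays, the DNMT3A probes ILMN_1676128 and ILMN_1698137 on 4 arrays each, and 11 probes on none.

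The maintenance pair DNMT1 and UHRF1 is shown first, with its start regions, because expression of both is tied to S phase. E2F factors, which switch on S phase genes, bind sites of the form TTTCCCGC, TTTCGCGC, TTTGCCGC or TTTGGCGC. These letters, on either strand, occur in 3.31% of 35116 RefSeq windows (250 bases before to 50 after a transcript start, GRCh38.p14), and in a window of 1090 of 27305 genes (3.99%). Among 16 replication genes with a window they occur in 10 (62.5%). They occur in windows of 2 of the 8 members that have a window, DNMT1 and UHRF1. Such a match is a description of the sequence and not a bound site. The window of DNMT1 (chr19:10194904-10195203, minus strand) and the first of 3 of UHRF1 (chr19:4909251-4909550, plus strand) are printed 5′ to 3′ with the matching letters in capitals. In DNMT1 the match begins 2 bases before the start and in UHRF1 14 bases before it.
DNMT1: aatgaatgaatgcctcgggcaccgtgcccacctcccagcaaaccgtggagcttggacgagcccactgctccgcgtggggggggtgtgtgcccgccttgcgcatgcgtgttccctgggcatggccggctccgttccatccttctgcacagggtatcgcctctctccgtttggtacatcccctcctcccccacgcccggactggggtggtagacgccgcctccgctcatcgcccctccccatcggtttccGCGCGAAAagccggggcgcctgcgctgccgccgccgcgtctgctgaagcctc
UHRF1: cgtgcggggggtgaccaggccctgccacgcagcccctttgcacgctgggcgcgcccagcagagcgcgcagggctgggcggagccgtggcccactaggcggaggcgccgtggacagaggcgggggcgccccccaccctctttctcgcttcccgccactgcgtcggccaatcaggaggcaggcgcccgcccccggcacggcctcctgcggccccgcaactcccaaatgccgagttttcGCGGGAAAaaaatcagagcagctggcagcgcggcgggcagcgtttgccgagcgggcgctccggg

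DNMT1 had 1 probe (ILMN_1760201, NM_001379) and it differed little between the groups. Its normalized log2 signal was 14.44 and 14.21 in NC siRNA cells with PBS and 14.27 and 14.01 after 5-Aza-CdR. In SRCAP siRNA cells it was 14.14 and 14.20 with PBS and 14.13 and 14.09 after the drug. All 8 values lay between 14.01 and 14.44. Drug and PBS arrays overlapped in NC siRNA cells, while in SRCAP siRNA cells both drug arrays lay just below both PBS arrays. The change with the drug was -0.19 ± 0.21 (95% confidence interval -0.67 to 0.29, adjusted p = 0.970) in NC and -0.06 ± 0.21 (-0.54 to 0.42, adjusted p = 0.992) in SRCAP siRNA cells. These and all further changes are log2 differences ± SE from limma with Benjamini-Hochberg adjustment over the 20328 tested probes, and "called" means an adjusted p under 0.05. Raw signals of this probe were 16489 to 20962, far above the controls, so detection does not limit the value.

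UHRF1 had 2 probes for 1 transcript (NM_013282), whose group means were both lowest in NC siRNA cells with the drug and highest in SRCAP siRNA cells with PBS. The brighter probe (ILMN_1786065) read 14.56 and 14.02 in NC siRNA cells with PBS and 14.01 and 13.81 after 5-Aza-CdR, and in SRCAP siRNA cells 14.57 and 14.17 with PBS and 14.41 and 14.23 after the drug. The dimmer probe (ILMN_2401352) read 9.55 and 9.19, 9.18 and 8.79, 9.66 and 9.70, and 9.69 and 9.38 in the same order of groups. In NC siRNA cells both drug arrays lay just below both PBS arrays for both probes, and in SRCAP siRNA cells the groups overlapped. The drug changes in NC siRNA cells were -0.38 ± 0.26 (-0.95 to 0.19) and -0.38 ± 0.24 (-0.92 to 0.16), neither of them called (adjusted p = 0.875 and 0.841). In SRCAP siRNA cells they were -0.05 ± 0.26 and -0.15 ± 0.24 (adjusted p = 0.995 and 0.974). Both probes were read higher on average with the SRCAP siRNA, by 0.25 ± 0.18 and 0.43 ± 0.17. Neither was called (adjusted p = 0.491 and 0.229).

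DNMT3A had 3 probes, and the annotation gives each another transcript: ILMN_1698137 the full-length form (NM_022552), ILMN_1654945 the short active form DNMT3A2 that begins at an internal start (NM_153759), and ILMN_1676128 a further short form (NM_175630) that ends before the catalytic domain. The probe sequences were not used here, so it is not shown that each probe reads its transcript alone. The gene has 6 RefSeq windows in 2 clusters of starts, holding 18 to 46 CpG, where the median over all windows is 14. The most CpG-rich window of each cluster is printed with every CpG in capitals, as a picture of the sequence that DNA methylation can act on: chr2:25341876-25342175 at the upstream starts, with 46 CpG, and chr2:25252266-25252565 at the internal starts, with 28, both on the minus strand. No methylation value was analysed here.
DNMT3A upstream: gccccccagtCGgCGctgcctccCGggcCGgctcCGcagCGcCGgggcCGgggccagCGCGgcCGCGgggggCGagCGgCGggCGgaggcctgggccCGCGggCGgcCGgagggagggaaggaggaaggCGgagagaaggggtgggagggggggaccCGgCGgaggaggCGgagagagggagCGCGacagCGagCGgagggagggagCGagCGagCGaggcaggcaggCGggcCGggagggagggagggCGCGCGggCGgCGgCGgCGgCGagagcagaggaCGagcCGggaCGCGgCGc
DNMT3A internal: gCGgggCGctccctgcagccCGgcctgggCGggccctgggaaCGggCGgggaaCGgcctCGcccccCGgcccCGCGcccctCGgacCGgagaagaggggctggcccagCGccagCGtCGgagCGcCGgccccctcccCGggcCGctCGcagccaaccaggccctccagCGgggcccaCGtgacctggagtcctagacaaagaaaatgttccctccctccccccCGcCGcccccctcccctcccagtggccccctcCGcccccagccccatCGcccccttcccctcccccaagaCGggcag

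The probe given to the form without a catalytic domain was the only member probe called with 5-Aza-CdR. ILMN_1676128 read 5.55 and 5.29 in NC siRNA cells with PBS and 6.41 and 7.24 after the drug. In SRCAP siRNA cells it read 5.09 and 5.51 with PBS and 6.28 and 6.22 after the drug. All 4 drug arrays lay above all 4 PBS arrays and the groups did not overlap. The same held for the raw signals, which were 128 to 155 with PBS and 184 to 254 after the drug. Only drug arrays detected the probe, so this separation is bound up with how it entered the tests and is no separate support. The increase was 1.41 ± 0.30 in NC siRNA cells (0.75 to 2.07, adjusted p = 0.0323) and 0.95 ± 0.30 in SRCAP siRNA cells (0.29 to 1.61, adjusted p = 0.280), of which the first was called. Since no PBS array detected the probe, the folds between group means are given as at least 2.27-fold and at least 1.47-fold. The reference was the higher of the probe's own signal and the lowest signal of any detected probe on each PBS array. These bounds concern the detection floor alone. They do not cover the spread between arrays, for which the intervals stand. The mean of both changes was 1.18 ± 0.21 and was called (adjusted p = 0.00913). Their difference was not (-0.46 ± 0.42, interval -1.39 to 0.47, adjusted p = 0.999), so an unequal response under the 2 siRNAs was not shown. By slide the change in NC siRNA cells was 0.87 and 1.95, and in SRCAP siRNA cells 1.19 and 0.70.

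This probe entered the tests only through the 4 drug arrays that detected it. Among the 753 tested probes that no PBS array detected, 380 (50.5%) were called higher after the drug in NC siRNA cells, so the call of a probe of this kind is no rare event. Its raw signal after the drug stayed close to the controls, and the call depended on the processing. It was lost with no detection filter (adjusted p = 0.111) and with only the 2 groups compared (adjusted p = 0.173). Without background correction the change in NC siRNA cells was 0.58 (adjusted p = 0.234), and with the authors' normalized values 0.41 (adjusted p = 0.312). It was also lost without replicate 2 of NC siRNA with 5-Aza-CdR, the array with the highest value (0.99, adjusted p = 0.247), without replicate 2 of NC siRNA with PBS (adjusted p = 0.122), and without either array of SRCAP siRNA with 5-Aza-CdR (adjusted p = 0.0887 each).

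Of the 2 other DNMT3A probes 1 was tested and not called and 1 was not detected. ILMN_1698137, of the full-length form, read 5.13 and 5.90 in NC siRNA cells with PBS, 5.50 and 6.25 after the drug, and in SRCAP siRNA cells 5.93 and 5.39 with PBS and 5.00 and 5.64 after the drug. It was detected on 1 array of each group, and the drug and PBS arrays overlapped under both siRNAs. The drug change was 0.36 ± 0.37 (-0.45 to 1.18, adjusted p = 0.963) in NC and -0.34 ± 0.37 (-1.16 to 0.48, adjusted p = 0.950) in SRCAP siRNA cells. ILMN_1654945, of DNMT3A2, was detected on no array, with raw signals of 112 to 158. The difference between the responses of the probes was not tested, and with signals this low the intervals leave room for an increase of the full-length form as well.

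Of the genes whose values followed ILMN_1676128 most closely over the 8 arrays, after each probe was centred on its own mean, CD14 (root mean square difference 0.172 on the log2 scale), RFLNB (0.175) and ZNF479 (0.179) came first among 11670 genes. Their drug changes in NC siRNA cells were 1.61, 1.60 and 1.38, and values near that of ILMN_1676128 follow from how these genes were picked. Their means in NC siRNA cells with PBS were 5.19, 4.52 and 4.94. The lowest detected signals on those 2 arrays were 5.62 and 5.68. CD14 is a co-receptor for bacterial lipopolysaccharide on myeloid cells.

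DNMT3B had 5 probes, 4 given to the full-length form NM_006892 and 1 to NM_175850, a splice form. The 3 that were detected are all given to NM_006892 and all had drug changes above 0 in both siRNA groups, none of them called. The probe with the least spread (ILMN_1794692) read 8.003 and 8.07 in NC siRNA cells with PBS and 8.37 and 8.51 after the drug, and in SRCAP siRNA cells 8.17 and 8.21 with PBS and 8.53 and 8.62 after the drug. The 4 drug arrays lay above the 4 PBS arrays. Its changes were 0.40 ± 0.20 (-0.05 to 0.86) and 0.38 ± 0.20 (-0.07 to 0.84), and their mean of 0.39 ± 0.14 had an unadjusted p of 0.0207 and an adjusted p of 0.277.

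The further DNMT3B probes varied more. ILMN_2328972 read 8.37 and 8.21, 8.64 and 8.42, 8.73 and 8.25, and 8.71 and 8.81 in the order NC siRNA with PBS, NC siRNA with drug, SRCAP siRNA with PBS, SRCAP siRNA with drug. ILMN_2328977 read 6.64 and 5.89, 6.93 and 5.91, 6.32 and 6.50, and 6.79 and 7.05. For both, drug and PBS arrays overlapped as a whole. The changes were 0.24 ± 0.24 and 0.16 ± 0.36 in NC and 0.27 ± 0.24 and 0.51 ± 0.36 in SRCAP siRNA cells (adjusted p = 0.877 to 0.994). The other probe of NM_006892 (ILMN_1733929, raw signal 101 to 136) was detected on no array, so probes of 1 transcript disagreed on its detection. The probe of NM_175850 (ILMN_1734285, 126 to 161) was not detected either. The only RefSeq window of DNMT3B in the set used here (chr20:32779602-32779901, plus strand) holds 3 CpG. It was not matched to NM_006892, so the CpG content at the start of that transcript is not given here.

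The cofactor DNMT3L, which is expressed in germ cells and stimulates DNMT3A and DNMT3B, gave raw signals of 106 to 146 over its 2 probes, with and without the drug. TET1 gave 104 to 129 over 2 probes and TET2 109 to 139 with 1 probe. None of these was detected on any drug array.

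MBD2 had 1 detected probe of 4. The annotation gives it (ILMN_1750395) to NM_015832, a form that lacks part of the protein and is known from testis, as it does 2 probes detected on no array (ILMN_1717195 and ILMN_2387452), while the probe of the main form NM_003927 (ILMN_1785587) was not detected either. Which form the signal came from cannot be told apart from these probes. ILMN_1750395 read 9.42 and 9.28 in NC siRNA cells with PBS and 8.88 and 9.17 after the drug, and in SRCAP siRNA cells 9.07 and 9.41 with PBS and 9.27 and 9.13 after the drug. The drug arrays lay below the PBS arrays in NC siRNA cells and overlapped them in SRCAP siRNA cells. The changes were -0.33 ± 0.23 (-0.83 to 0.17, adjusted p = 0.884) and -0.04 ± 0.23 (-0.54 to 0.47, adjusted p = 0.995).

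**Figure D2:**
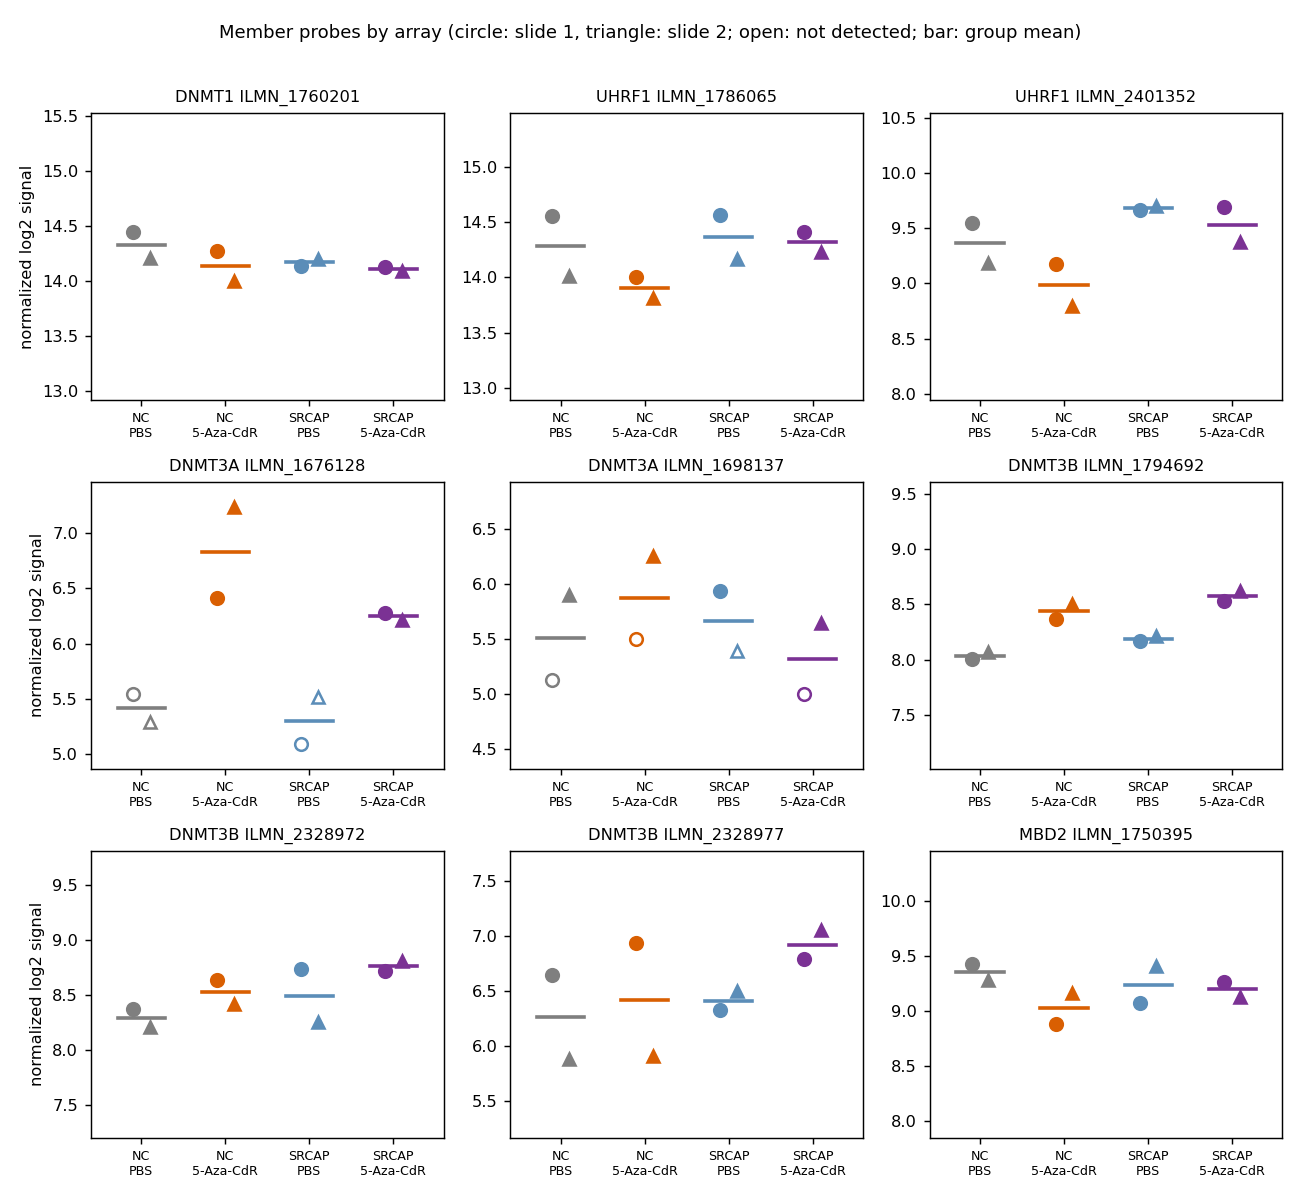
Normalized log2 signal of the 9 tested member probes, 1 panel per probe with axes of equal span, for the 4 groups on the x axis. Circles are slide 1, triangles slide 2, open symbols arrays on which the probe was not detected and bars group means (n = 2); DNMT3A ILMN_1676128 is detected on the 4 drug arrays alone, at 6.22 to 7.24.

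Over the members, 5-Aza-CdR in NC siRNA cells gave 1 call in 9 probes, where 2.71% of the 20328 tested probes were called (540 higher, 11 lower). In SRCAP siRNA cells it gave 0 calls in 9, where 1.89% were called, and 1 of the 9 had an unadjusted p under 0.05, as did 7.78% of all. For the average of both the members had 1 call, where 3.68% were called. Since the 1 called probe was also 1 of those that passed the detection filter through the drug arrays alone, the count is a description. Of the 9 probes, 5 had a change above 0 in NC siRNA cells and 4 in SRCAP siRNA cells, so the members moved in no common direction. In NC siRNA cells the de novo enzymes DNMT3A and DNMT3B (5 probes) had changes above 0, and DNMT1, UHRF1 and MBD2 (4 probes) had changes below 0. In SRCAP siRNA cells the full-length DNMT3A probe was below 0 too. Of the changes in this pattern only that of DNMT3A ILMN_1676128 was called. In NC siRNA cells those of DNMT3A ILMN_1698137 and DNMT3B ILMN_2328977 could fall below 0 with 1 array left out (lowest -0.021 and -0.35). The median change of all tested probes there was -0.06.

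**Figure D3:**
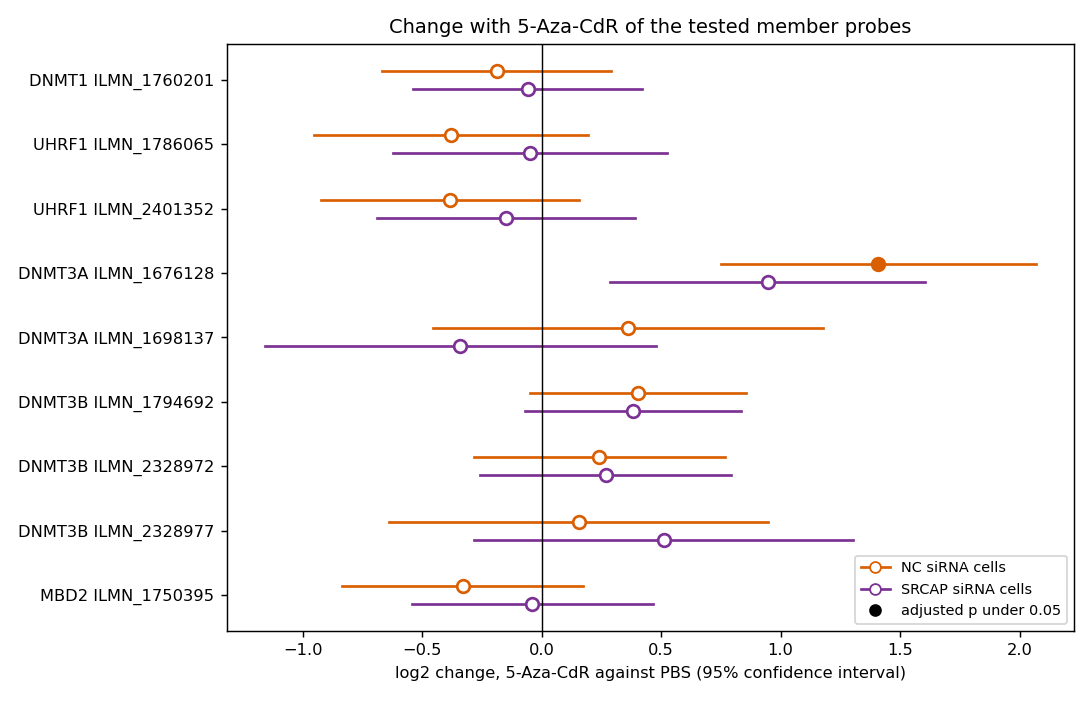
Log2 change with 5-Aza-CdR against PBS for the 9 tested member probes, in NC siRNA cells (orange) and SRCAP siRNA cells (purple), with 95% confidence intervals from limma. The filled point (adjusted p under 0.05) is DNMT3A ILMN_1676128 in NC siRNA cells at 1.41; the intervals of the 8 other probes include 0 in both groups.

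No member was called for the SRCAP siRNA. Under PBS 0 of 9 probes were called, where 0.00984% of all tested probes were, and 0 had an unadjusted p under 0.05. Under 5-Aza-CdR 0 were called (0.305% of all) and 1 had an unadjusted p under 0.05, where 13.2% of all tested probes did. It was UHRF1 ILMN_2401352 at 0.55 ± 0.24 (adjusted p = 0.373). On average over both treatments 0 were called (0.989% of all) and 1 had an unadjusted p under 0.05, where 18.4% of all did, so the members' count is no higher than the background in either comparison. The interaction, which is the drug change under the SRCAP siRNA less that under the NC siRNA, had 0 calls among the members and 0 (0%) among all probes, with 499 of all and 0 of the members at an unadjusted p under 0.05. Member values of the interaction ran from -0.70 ± 0.52 for the full-length DNMT3A probe to 0.35 ± 0.50 for DNMT3B ILMN_2328977. With 2 arrays per group, intervals of this width do not show that the responses were equal.

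Other genes of the pathway were taken as 6 lists, each gene by its brightest tested probe. Proteins that bind or recruit the methyltransferases, such as PCNA and HELLS, had 0 calls among 12 measured genes in either drug comparison by limma (1 and 2 at an unadjusted p under 0.05), with a median change of -0.24 in NC and -0.20 in SRCAP siRNA cells. The median of all 11670 genes was -0.04 and -0.01, and 8.35% and 8.55% of them had an unadjusted p under 0.05. The 18 replication genes had 0 calls (4 and 2 at an unadjusted p under 0.05), changes below 0 for all 18 in NC siRNA cells and medians of -0.38 and -0.29. For the average drug effect 1 of them was called, MCM5, a subunit of the replicative helicase. Of all 11670 genes 468 were called higher there and 33 lower. An unadjusted p under 0.05 was reached by 8 of the 18 and by 12.3% of all genes. MCM5 read 11.31 and 11.19 in NC siRNA cells with PBS and 10.61 and 10.86 after the drug. In SRCAP siRNA cells it read 11.69 and 11.33 with PBS and 10.67 and 10.64 after the drug. The drug arrays all lay below the PBS arrays, with a change of -0.68 ± 0.16 (adjusted p = 0.0428). The call was lost when any of the 8 arrays was left out (-0.77 to -0.60, adjusted p = 0.0575 to 0.190) and among the probes detected on all 8 arrays (adjusted p = 0.0950). Both DNMT1 and UHRF1 read changes of the same sign as these 18 genes in NC siRNA cells, with no call. That sign was not particular to them. MBD2 had it too, as did 9 of the 12 methyltransferase partners, 8 of 11 NuRD subunits and 7 of 8 genes of methyl donor synthesis. In the 2 other lists, 8 of 13 genes for oxidised methylcytosine and TET partners and 2 of 5 other methyl-CpG binding proteins had it. A shared cause was not tested.

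In the remaining lists no gene was called with the drug. The NuRD subunits that work with MBD2 had 0 calls among 11 genes (0 in each siRNA group at an unadjusted p under 0.05, medians -0.15 and -0.02), and the other methyl-CpG binding proteins 0 among 5 measured of 8 (0 and 1 unadjusted, medians 0.05 and -0.16). Enzymes that remove oxidised methylcytosine, together with partners of TET proteins, had 0 calls with the drug among 13 genes (1 and 1 unadjusted, medians -0.04 and 0.03). In that list XRCC1, the scaffold of single-strand break repair, was called lower on average with the SRCAP siRNA. Of all 11670 genes 23 were called higher there and 123 lower. An unadjusted p under 0.05 was reached by 2 of the 13 genes and by 19.2% of all. XRCC1 read 9.19 and 9.56 in NC siRNA cells with PBS and 9.11 and 9.39 after the drug. In SRCAP siRNA cells it read 8.58 and 8.75 with PBS and 8.15 and 8.20 after the drug. All SRCAP siRNA arrays lay below all NC arrays, by -0.89 ± 0.16 (adjusted p = 0.0375). This call was lost without background correction (-0.72, adjusted p = 0.0584), with the authors' values (-0.61, adjusted p = 0.0911), with no detection filter (adjusted p = 0.0621), and without any 1 of 6 arrays (-0.93 to -0.80, adjusted p = 0.0870 to 0.222), those other than replicate 1 of either NC group. The 8 genes of methyl donor synthesis had 0 calls (0 and 0 unadjusted) and medians of -0.30 and -0.00 with the drug.

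**Figure D4:**
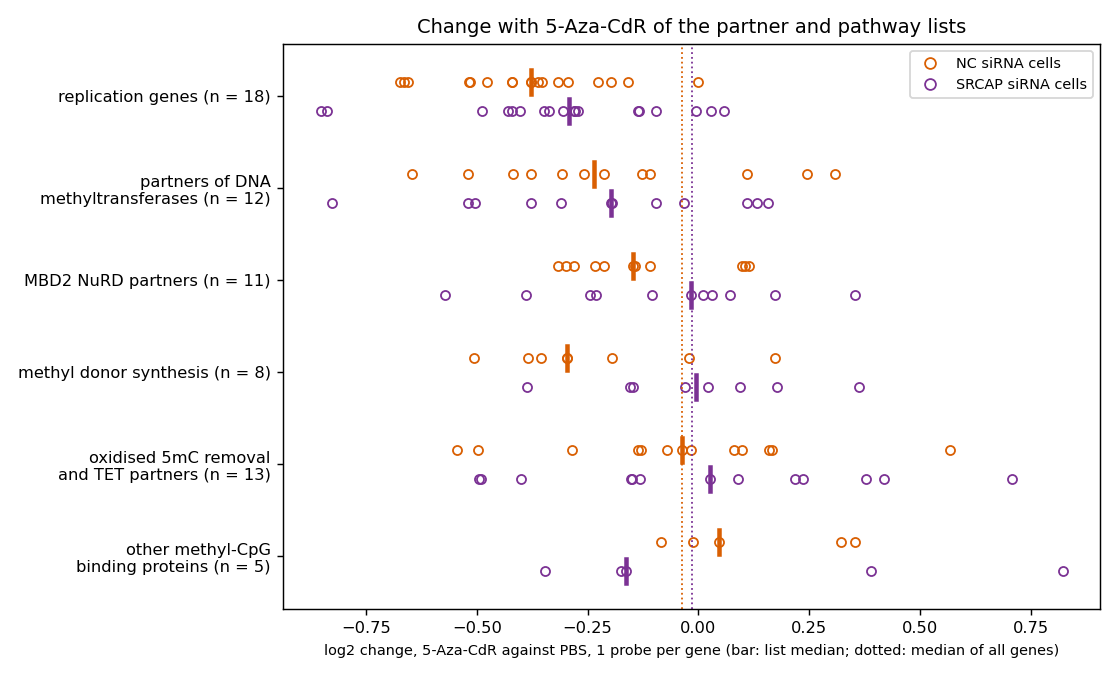
Log2 change with 5-Aza-CdR against PBS of the genes of 6 pathway lists, 1 circle per gene, in NC siRNA cells (orange) and SRCAP siRNA cells (purple). Bars are list medians and dotted lines the medians of all 11670 genes (-0.04 and -0.01); the 18 replication genes lie at or below 0 in NC siRNA cells, with a median of -0.38.

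Genes silenced by methylation that the study followed are given for the size of their change alone. The study drew CHFR, CTCFL, SYCP3 and EPM2AIP1 from genes it had found raised by the drug on these arrays. CDKN2A was among those genes too. Their calls follow from that choice and are no separate support. All 5 measured (CDKN2A, CHFR, CTCFL, SYCP3 and EPM2AIP1) were called higher in both siRNA groups, with changes of 2.27 to 5.52 in NC and 1.47 to 4.88 in SRCAP siRNA cells. No PBS array detected CDKN2A, CTCFL, SYCP3 or EPM2AIP1 either, so these too passed the detection filter through the drug arrays alone. Their folds are bounds of the same kind, at least 5.62, 21.5, 15.6 and 3.80-fold in NC siRNA cells. The 5 genes and DNMT3A ILMN_1676128 were not ranked against each other.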

How the data were processed

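Bead-level data were summarised in BeadStudio 3.0.1 by the authors. The deposited intensity values, 1 mean over beads per probe, are linear and not background-subtracted or normalized, and the deposited detection p-value sets each signal against the negative control beads. The authors' log2 table (robust spline normalization, lumi, version not given in the sources used here) served as an alternative. Its low signals are compressed.

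Of 48805 lines, 2 duplicated IDs were left out. Signals were corrected and quantile normalized with neqc (normexp from the detection p-values, offset 16, limma 3.58.1, R 4.3.3). Probes detected on at least 2 of 8 arrays were kept. All 8 arrays entered 1 linear model with a mean for each group (4 residual and 5.83 prior degrees of freedom). Tests were two-sided. The study used SAM, for which 2 arrays a group leave few permutations. The number of arrays limits the precision.

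Replicate numbers mark a shared slide per the labels, and same-slide deviations correlated at 0.00347 to 0.711. The members and lists were chosen with earlier results of these data known. Named were all members, list genes called in a comparison (up to 4 a list), SRCAP, cell type markers, and the 3 genes most like a member whose brightest probe was called with the drug. PCNA and HELLS were named as examples after their values were seen. Promoter windows and symbols came from RefSeq (GRCh38.p14). Alternatives covered background, table, filter, the slide as a block, the 2 groups alone, and each array left out.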

Additional observations from a re-analysis of the deposited data

How the results depend on the processing

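Of 400 changes of single probes under settings other than leaving out an array, 394 kept their direction and their side of the threshold and 6 were no longer called. The latter were all of DNMT3A ILMN_1676128. In NC siRNA cells, member calls went from 1 to 0 without background correction, in the authors' table, with probes detected on all 8 arrays (which leaves the probe out), with no detection filter (adjusted p = 0.111) and with only the 2 groups compared (adjusted p = 0.173). The average drug effect went from 1 to 0 calls without background correction (0.46, adjusted p = 0.112), with the authors' values (0.32, adjusted p = 0.166) and with probes detected on all 8 arrays. With the replicate block (slide) the count in NC siRNA cells stayed at 1 (adjusted p = 0.00591), and the block changed no member's call. For the drug in NC and in SRCAP siRNA cells the 6 pathway lists kept 0 calls under every setting run; list counts for the average drug effect, with 1 call (MCM5), were not rerun. A detection p under 0.05, added after the data were seen, kept the call (adjusted p = 0.0288) and admitted DNMT3B ILMN_1734285 (-0.28 ± 0.26 in NC siRNA cells, adjusted p = 0.952).

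Leaving out 1 array at a time, the member count ran from 0 to 1 for the drug in NC siRNA cells and for its average, which lost its call without replicate 1 of SRCAP siRNA with PBS (adjusted p = 0.0530) or either array of SRCAP siRNA with 5-Aza-CdR (adjusted p = 0.0637 and 0.0591). Of 504 such changes 39 reversed, in 19 results, none of them called. For the drug in NC siRNA cells these ran from -0.021 to 0.75 (DNMT3A ILMN_1698137) and -0.35 to 0.66 (DNMT3B ILMN_2328977), and for the average drug effect -0.18 to 0.20 (DNMT3A ILMN_1698137). For the drug in SRCAP siRNA cells they ran from -0.25 to 0.15 and -0.30 to 0.0083 (UHRF1 ILMN_1786065 and ILMN_2401352) and -0.21 to 0.13 (MBD2). For the SRCAP siRNA under PBS they ran from -0.33 to 0.10 and -0.24 to 0.53 (DNMT3A ILMN_1676128 and ILMN_1698137), -0.038 to 0.45 and -0.24 to 0.52 (DNMT3B ILMN_2328972 and ILMN_2328977), -0.19 to 0.35 (UHRF1 ILMN_1786065) and -0.28 to 0.051 (MBD2). Under 5-Aza-CdR they ran from -0.16 to 0.11 (DNMT1) and -0.011 to 1.01 (DNMT3B ILMN_2328977), and for the average -0.055 to 0.11 (MBD2). For the interaction they ran from -0.0033 to 0.26 (DNMT1), -0.090 to 0.047, -0.21 to 0.27 and -0.15 to 0.86 (DNMT3B ILMN_1794692, ILMN_2328972 and ILMN_2328977). The cause was not tested. Reversals occurred in bright probes (DNMT1, UHRF1 ILMN_1786065) as well as dim ones.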
